A study of Mus musculus with 6 samples.

Results

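Anti-PD-1 treatment was compared with isotype control antibody in the immune cells of YUMM1.7 tumours grown in mice with a floxed glucocorticoid receptor gene (Nr3c1) and no Cre recombinase. The comparison held 11109 cell barcodes of the 20407 assigned to a mouse in the whole series, the other 9298 coming from LysM-Cre mice. Members were the barcodes of both cell pools (called E5 and E6) whose leading hashtag had at least 10 counts and at least 70% of the barcode's hashtag counts, with at least 500 gene UMIs (unique molecular identifiers, which count RNA molecules) and at most 10% mitochondrial UMIs. Each pool and hashtag stood for 1 mouse, so 4 anti-PD-1 mice were set against 4 isotype mice: anti-PD-1 mice 1 and 2 and isotype mice 1 and 2 were in pool E5, and mice 3 and 4 of each treatment in pool E6.

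YUMM1.7 is a mouse melanoma cell line, and 250000 cells were injected under the skin of 8-week-old female C57BL/6J mice. Both treatment groups carried the floxed Nr3c1 allele (GRf/f) and no Cre transgene, and the hashtag table lists both as wildtype. The antibody or its isotype control was given at 12.5 mg/kg, 2 times per week for 3 weeks from about day 7, and tumours were taken on day 28. The LysM-Cre mice of the same series carry Cre at the lysozyme 2 locus, which acts in macrophages, monocytes and neutrophils. Their cells were clustered together with the floxed cells, so they helped to define the cell classes. Otherwise they enter here through a test of whether the treatment difference varied with genotype. They also enter an alternative fit that held the mice of both genotypes. Tumour cells were stained with hashtag antibodies that mark the mouse and with a panel of oligo-tagged surface antibodies, sorted for the leukocyte antigen CD45 and loaded as 25000 cells per pool of 8 mice.

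PD-1 is an inhibitory receptor that activated T cells carry, and its ligands PD-L1 and PD-L2 are displayed by myeloid cells, tumour cells and other cells exposed to inflammatory cytokines. Blocking PD-1 relieves inhibition of the T cell receptor and CD28 signal. Activated CD8 T cells then release interferon gamma, which induces guanylate-binding proteins, CXCR3-binding chemokines and antigen presentation genes in nearby macrophages and dendritic cells.

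The hashtag and antibody tags that carry the comparison were read from the deposited feature table and are printed 5′ to 3′ as that table lists them. The 4 hashtags below define the mice.
Hashtag 8 (isotype): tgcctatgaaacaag
Hashtag 9 (isotype): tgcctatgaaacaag
Hashtag 12 (anti-PD-1): ctgcaaatataacgg
Hashtag 13 (anti-PD-1): ctacattgcgatttg
Hashtags 8 and 9 are listed with the same tag, although both mark isotype mice, so a mix-up between them would not cross treatments. In the count matrix they were distinct: cells assigned to hashtag 8 had a median of 627 counts of it and 3 of hashtag 9, and cells assigned to hashtag 9 had 729 of it and 4 of hashtag 8. The tags of the surface antibodies on which the protein results turn are the following.
CD169: attgacgacagtcat
CD25: accatgagacacagt
TIM4: tgctggagggtattc
CD80: gacccggtgtcattt
CD163: gagcaagattaagac
CD279 (PD-1): gaaagtcaaagcact
CD274 (PD-L1): tcgattccaccaact

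Assigned cells were fewer on average in anti-PD-1 mice. These are barcodes recovered from a sorted and pooled load of 25000 cells per 8 mice, not counts of leukocytes per tumour. Mice of a pool shared that load, so their numbers were not independent of each other. Anti-PD-1 mice 1 to 4 held 943, 161, 696 and 513 cells, and isotype mice 1 to 4 held 1964, 2061, 3833 and 938. The means were 578 ± 329 and 2199 ± 1202 cells (SD, n = 4 mice each). Anti-PD-1 mouse 1 held slightly more cells than isotype mouse 4, so the groups overlapped, and the difference gave p = 0.0571 in a two-sided exact permutation test. Without isotype mouse 4 the difference was -2041 cells and the exact permutation p was 0.0286. That mouse was the only isotype mouse below an anti-PD-1 mouse. Leaving it out therefore separated the groups fully, and this p is no separate support. Without isotype mouse 3 the difference was -1076. Anti-PD-1 mouse 2 stood apart with few cells and entered no fit of a class in which it had fewer than 20.

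Median depth per cell ran from 7608 to 10260.0 UMIs over the 8 mice, the median mitochondrial share from 2.16% to 2.90%, and barcodes marked as recovered doublets made up 3.51% to 10.2% of a mouse's cells. The pools shared 805 barcode sequences, with a median of 663 UMIs in E5 and 52089 in E6. Of the floxed cells, 139 carried such a barcode (17 in E5 and 122 in E6). Ptprc, which encodes CD45, had a UMI in 90.01% of the floxed cells, in 82.1% of macrophages (median 12509 UMIs) and in 36.8% of fibroblast-like cells (median 25830 UMIs).

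Clusters were named from marker genes and are "-like" classes in that sense: monocyte, macrophage, neutrophil, CD8 T, CD4 T, regulatory T, NK, dendritic cell (DC) and smaller classes. Cluster 3, with 701 floxed cells, was left unnamed because its monocyte and macrophage markers scored 1.79 and 1.70 on the log2 scale. Its top genes were led by Ly6i, Cfb and Spon1, followed by genes of MHC class II and Cxcl9. Shares of 17 classes were compared over mice, and none passed a Benjamini-Hochberg adjusted p of 0.05. With 4 mice against 4 the smallest exact p is 0.0286, and 0.0556 when mice are relabelled within their pool. The 2 classes at an exact permutation p of 0.0286 had a Benjamini-Hochberg adjusted p of 0.243, and 2 classes alone can reach no lower. Neither could therefore have passed, so the adjusted p decides nothing about them.

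Regulatory and CD8 T cells had smaller mean shares in anti-PD-1 mice, without overlap between the groups. CD4 T cells were 1.94% ± 1.199 against 2.85% ± 1.44 (SD, n = 4 mice each), with overlap and an exact permutation p of 0.343. Gamma-delta or innate-like T cells, only 32 in all, were 0.306% against 0.357% on average (exact permutation p = 0.8). Cluster 16, left unnamed, was led by Trdc and also had Tcrg-C4 and Tcrg-C2 among its top genes. Its 316 cells gave 1.73% ± 0.798 against 3.26% ± 0.918 (SD, n = 4 mice each). The groups overlapped, with an exact permutation p of 0.0571 and an adjusted p of 0.291. Regulatory T cells, the Foxp3-expressing CD4 T cells that restrain other T cells, were 0.848, 1.86, 1.15 and 2.14% of the cells of anti-PD-1 mice 1 to 4 and 5.09, 6.79, 3.44 and 4.48% in isotype mice 1 to 4. Every isotype mouse was above every anti-PD-1 mouse. The means were 1.501% ± 0.604 against 4.95% ± 1.403 (SD, n = 4 mice each), with an exact permutation p of 0.0286 and an adjusted p of 0.243. Counting limits how well the low shares are known: the 3 regulatory T cells of anti-PD-1 mouse 2 allowed 0.386% to 5.35% (95% exact Clopper-Pearson interval, counting error only). CD8 T cells were 5.196, 6.21, 8.19 and 7.99% in anti-PD-1 mice and 12.5, 18.8, 8.32 and 10.6% in isotype mice. The highest anti-PD-1 mouse was just under the lowest isotype mouse, and the difference was mostly in one pool, at -9.95 percentage points in E5 and -1.35 in E6. Means of CD8 T cells were 6.897% ± 1.44 against 12.5% ± 4.52 (SD, n = 4 mice each), with the same exact permutation p of 0.0286 and adjusted p of 0.243.

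All T and NK classes summed to 17.0% ± 5.39 of cells in anti-PD-1 mice and 30.9% ± 9.72 in isotype mice. Within them, regulatory T cells were 6.96%, 15%, 5.26% and 10% in anti-PD-1 mice 1 to 4 and 14.3%, 16.2%, 17.0% and 17.4% in isotype mice 1 to 4. Anti-PD-1 mouse 2, with 20 T and NK cells in all, lay inside the isotype range and the other anti-PD-1 mice below it. CD8 T cells were 41.8% ± 5.97 of T and NK cells in anti-PD-1 mice and 40.6% ± 4.16 in isotype mice. The difference of the CD8 T means within the T and NK classes was smaller than either SD.

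Myeloid shares varied widely between anti-PD-1 mice. Macrophages were 7.95, 34.8, 11.4 and 23.002% of the cells of anti-PD-1 mice 1 to 4 and 8.299, 9.51, 7.23 and 11.8% of those of isotype mice 1 to 4 (exact permutation p = 0.2). Mouse 2, which had the fewest cells, held the highest share. Monocytes were 50.1, 21.1, 33.8 and 22.6% and 17.7, 12.8, 33.1 and 25.8% (exact permutation p = 0.286), and the pools differed in direction, with +20.4 percentage points in E5 and -1.25 in E6. Fibroblast-like cells, which a CD45 sort should remove, were 3.67% ± 1.65 against 7.66% ± 2.68 (SD, n = 4 mice each) (exact permutation p = 0.0857). Mature Ccr7-expressing DC were 0.334% ± 0.309 against 1.21% ± 0.658 (SD, n = 4 mice each) (exact permutation p = 0.0857). None was found among the 161 cells of anti-PD-1 mouse 2, which allows a share of up to 1.86% (3 counts of the total).

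**Figure D1:**
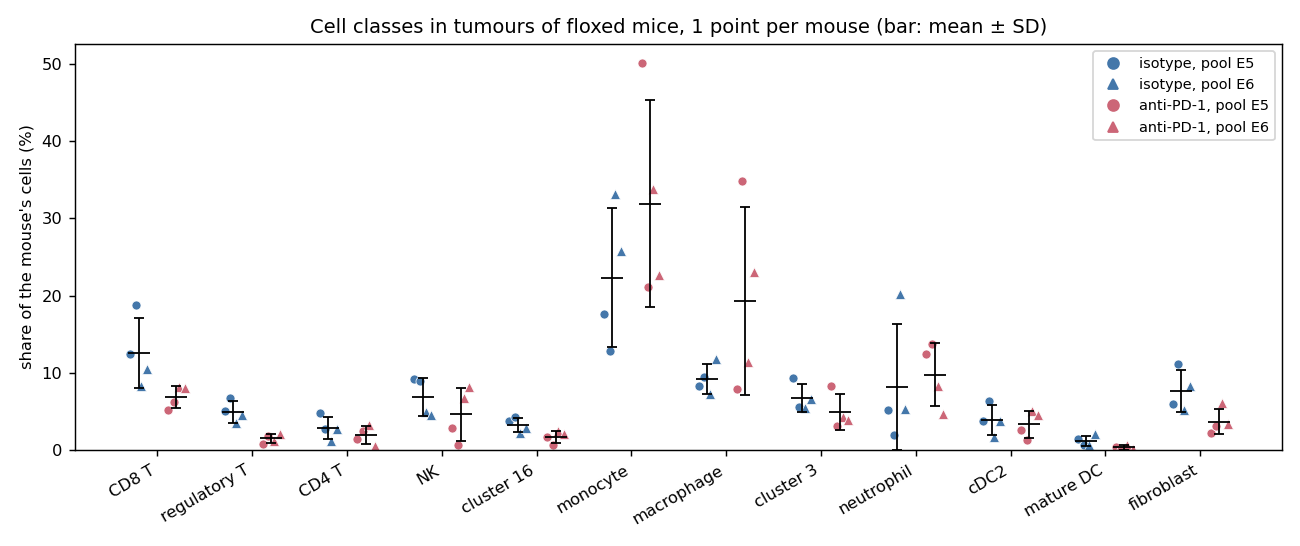
Share of each cell class among a floxed mouse's cells, in percent, with 1 point per mouse and the mean and SD of each treatment. Regulatory T cells (0.848% to 2.14% against 3.44% to 6.79%) and CD8 T cells (5.196% to 8.19% against 8.32% to 18.8%) are the 2 classes in which the treatments do not overlap.

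Genes were then tested in each class with at least 20 cells in at least 3 mice of each treatment, on UMI counts summed per mouse, with pool as a covariate. CPM is a gene's part of a class's summed UMIs on edgeR's counts-per-million scale, after TMM scaling between mice, differences are anti-PD-1 minus isotype on the log2 scale, and a gene was called at a Benjamini-Hochberg adjusted p under 0.05 in edgeR's quasi-likelihood test over all genes of the class. The CD8 T, NK, type 2 conventional DC (cDC2) and cluster 3 fits used anti-PD-1 mice 1, 3 and 4 only. Calls were few: 1 of 6452 genes in CD8 T cells (0.0155%), 1 of 9104 in monocytes (0.011%) and 6 of 7532 in cluster 3 (0.0797%), all higher under anti-PD-1.

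Interferon gamma RNA rose in the cells of the CD8 T class. Ifng, the cytokine by which activated T cells stimulate macrophages, stood at 1989, 2503 and 1035 CPM in anti-PD-1 mice 1, 3 and 4 and at 310.0, 298, 678 and 588 CPM in isotype mice 1 to 4. All 3 anti-PD-1 mice were above all 4 isotype mice. The fold was 3.99, with log2 difference 2.00 (SE 0.26), adjusted p = 0.0163, and the pools gave 2.71 in pool E5 and 1.35 in pool E6. The gene kept its direction in all 16 alternatives and was called in 11, with adjusted p from 6.5e-66 to 0.531. It was not called without anti-PD-1 mouse 1 (adjusted p = 0.371), anti-PD-1 mouse 3 (0.186) or isotype mouse 4 (0.165), nor without the pool covariate (0.0844) or with all 16 mice in the fit (0.531). The class also carried CD4 antibody, at 20570, 50040 and 18290 CPM of antibody counts against 10270, 7681, 25620 and 993. In anti-PD-1 mouse 3 this exceeded the CD8a antibody, at 44540. The difference in CD4 was 1.29 (SE 0.93, adjusted p = 0.607). The part of CD4-bearing cells in the results of this class was not tested.

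Tnfrsf9, which encodes the costimulatory receptor 4-1BB (CD137) of activated T cells, had 336, 255 and 329.9 CPM in the anti-PD-1 mice and 151, 184, 164 and 157 in the isotype mice, without overlap. It narrowly missed the threshold, at 0.91 (SE 0.14, adjusted p = 0.0524). The CD137 antibody on the same cells read 2346, 2517 and 1883 CPM of antibody counts against 1116, 1527, 1011 and 1379, also without overlap, at 0.86 (SE 0.22, adjusted p = 0.232). Among the other inhibitory receptor and exhaustion genes, Lag3 differed by 0.51 (SE 0.17, adjusted p = 0.709) and Havcr2 by 0.29 (SE 0.18, adjusted p = 0.909). Of the 11 tested members, 6 were above 0 and 5 below, with a median of 0.01 against 0.01 for all tested genes.

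Estimates of killing genes went both ways in CD8 T cells. Of 14 tested cytotoxic effector genes, Ifng was the only one called, 8 were above 0 and 6 below, and the median was 0.04. Perforin (Prf1), which forms pores in target cells, differed by 0.78 (SE 0.30, adjusted p = 0.862). Granzyme B (Gzmb), a protease delivered through those pores, ranged from 699 to 2402 CPM in anti-PD-1 mice and from 517 to 1127 in isotype mice, with overlap and a difference of 0.71 (SE 0.35, adjusted p = 0.883). The 17 cell cycle genes had a median of 0.14, and none was under an unadjusted p of 0.05.

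Interferon-stimulated genes of CD8 T cells had estimates mostly below 0 in the same cells in which Ifng was higher. Ifit1, an RNA-binding antiviral protein, read 32, 70.1 and 48.05 CPM in anti-PD-1 mice 1, 3 and 4 and 165, 94.7, 178 and 152 in isotype mice 1 to 4, with no overlap. It came at -1.62 (SE 0.26, adjusted p = 0.0524), just over the threshold. Ifit3 and Bst2 differed by -1.36 (SE 0.31, adjusted p = 0.557) and -0.66 (SE 0.20, adjusted p = 0.709). Of the 32 tested members of the interferon list, 23 were below 0 and 9 above, and 9 were under an unadjusted p of 0.05, all of them below 0. Over all genes of the class, 368 of 6452 were under that p. The list's median was -0.22, against 0.01 for all tested genes, and none was called.

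**Figure D2:**
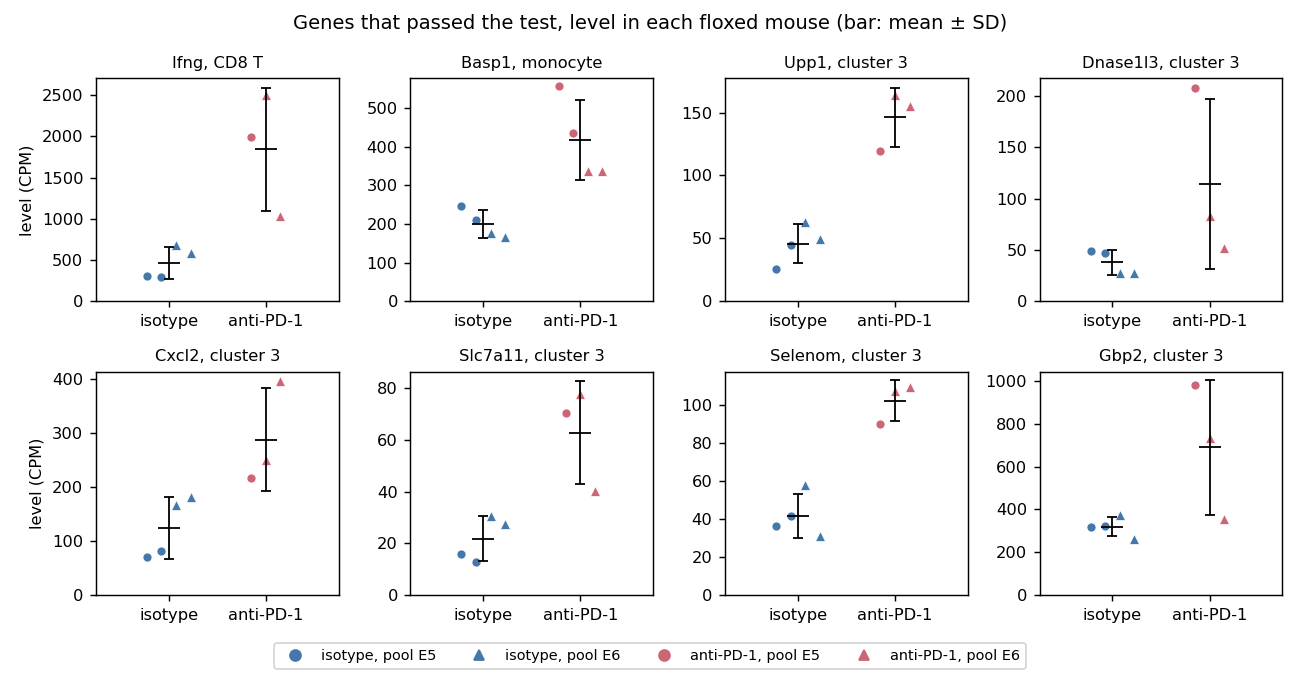
Levels per mouse, in CPM on a linear axis, of the 8 genes called in a cell class of floxed mice, with anti-PD-1 and isotype mice in separate columns. Ifng in CD8 T cells runs from 1035 to 2503 CPM under anti-PD-1 and from 298 to 678 CPM under isotype.

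Regulatory T genes were low in the sums over all cells of anti-PD-1 mice. In such sums, fewer cells of a type and less RNA per cell cannot be told apart. Over all cells 0 of 12749 genes were called (0%), while 1815 were under an unadjusted p of 0.05 and DESeq2 called 292. Foxp3, the transcription factor that defines regulatory T cells, had 4.76, 4.16, 4.14 and 5.64 CPM in anti-PD-1 mice 1 to 4 and 16.2, 17.8, 13.9 and 14.1 in isotype mice 1 to 4. Every isotype mouse lay above every anti-PD-1 mouse. The difference was -1.70 (SE 0.16, adjusted p = 0.0588). Tnfrsf4, which encodes the costimulatory receptor OX40, read 25.8, 39.5, 32.3 and 30.4 against 75.7, 95.6, 63.4 and 65.3 CPM, at -1.23 (SE 0.16, adjusted p = 0.231). Il2ra, the high-affinity chain of the interleukin-2 receptor, read 11.4, 7.28, 18.9 and 17.4 against 42.5, 45.9, 35.3 and 37.7 CPM, at -1.53 (SE 0.24, adjusted p = 0.231). Of 13 tested genes of regulatory T function, 12 were below 0, 9 of them under an unadjusted p of 0.05, and the median was -1.10 against 0.01 for all genes. No anti-PD-1 mouse had 20 regulatory T cells, so no fit within the class was made. Summed T and NK markers, all 12 of which were detected, ranged from 624 to 1874 CPM over all cells of the anti-PD-1 mice and from 1397 to 2819 CPM in the isotype mice. Their part in these values was not tested.

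Monocytes were the largest class, with 2977 floxed cells, and 1 gene was called in them. Basp1, which encodes a membrane-associated signalling protein that also acts as a transcriptional corepressor, had 557, 436, 338 and 337 CPM in anti-PD-1 mice 1 to 4 and 246, 209, 176 and 166 in isotype mice 1 to 4. The lowest anti-PD-1 mouse was above the highest isotype mouse. The fold was 2.08, with log2 difference 1.06 (SE 0.12), adjusted p = 0.0277, and the pools gave 1.12 in pool E5 and 0.98 in pool E6. It kept its direction in all 17 alternatives and was called in 8 (adjusted p from 2.28e-12 to 0.323). Of the 8 fits that left out a mouse, those without anti-PD-1 mouse 2 or isotype mouse 3 still called it, and the other 6 did not. In all, 987 genes of the class, Basp1 included, were under an unadjusted p of 0.05, and DESeq2 called 60.

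Hypoxia and glycolysis genes were higher in estimate throughout the monocytes, and none of them was called. All 20 tested members were above 0, 14 of them under an unadjusted p of 0.05, and the median was 0.44 against -0.01 for all genes of the class. Ndrg1, a stress-induced growth regulator, had 346, 188, 112 and 109 CPM in anti-PD-1 mice and 54.1, 63.9, 57.4 and 41.3 in isotype mice. Every anti-PD-1 mouse exceeded every isotype mouse, and the difference was 1.69 (SE 0.25, adjusted p = 0.12). Hilpda, a hypoxia-inducible protein of lipid droplets, was at 279.6, 186, 127 and 131 against 72.2, 29.3, 74.5 and 58.5 CPM, again without overlap, at 1.57 (SE 0.32, adjusted p = 0.247). Bnip3, a mitophagy receptor, differed by 0.88 (SE 0.16, adjusted p = 0.208), and its lowest anti-PD-1 mouse was below its highest isotype mouse. Among the enzymes of glycolysis, Pkm differed by 0.46 (SE 0.11, adjusted p = 0.247) and Ldha by 0.39 (SE 0.11, adjusted p = 0.265). Differences were larger in E5 than in E6 for Ndrg1 (2.10 in pool E5 and 1.16 in pool E6) and for Hilpda (2.28 in pool E5 and 0.96 in pool E6).

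Inflammatory genes of the monocytes also had estimates above 0, in all 18 tested members, 8 of them under an unadjusted p of 0.05. None was called, and the median was 0.64. Nos2, the inducible nitric oxide synthase, ranged from 27.7 to 183 CPM in anti-PD-1 mice and from 5.85 to 40.3 CPM in isotype mice, with anti-PD-1 mouse 4 inside the isotype range, at 1.93 (SE 0.51, adjusted p = 0.248). Ptgs2, the inducible cyclooxygenase, gave 226, 250.4, 282 and 115 against 129.5, 43.7, 124 and 57.3 CPM, with overlap, at 1.28 (SE 0.37, adjusted p = 0.265). Clec4e, the receptor Mincle for microbial and damage-derived glycolipids, had 452, 402, 246 and 219.6 against 174, 117, 198 and 151 CPM, without overlap, at 0.98 (SE 0.24, adjusted p = 0.247). From the tumour-associated macrophage list, Spp1 (osteopontin) ranged from 316 to 2246 CPM under anti-PD-1 and from 146 to 493 CPM under isotype, at 2.12 (SE 0.54, adjusted p = 0.247), and Fabp5, a fatty acid carrier, differed by 1.36 (SE 0.32, adjusted p = 0.247). Over that list 7 members were above 0 and 12 below.

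Interferon-stimulated genes of the monocytes had estimates mainly below 0. Of 34 tested members 31 were below 0, 12 of them under an unadjusted p of 0.05, and none was called. The median was -0.64. Summed over the list, anti-PD-1 mice 1 to 4 had 8469.5, 3098, 14785 and 10916 CPM of monocyte RNA and isotype mice 1 to 4 had 17883, 11126, 10109 and 12655 CPM, with overlap. Ifit3 read 137, 16.9, 156 and 226 CPM in anti-PD-1 mice and 653, 298, 232 and 388 in isotype mice, at -1.51 (SE 0.49, adjusted p = 0.298), and its pools differed in size, with -3.15 in pool E5 and -0.67 in pool E6. Cxcl9 and Cxcl10, CXCR3-binding chemokines that attract T cells, turned direction between pools, with -1.22 in pool E5 and 1.06 in pool E6 for Cxcl9 and -2.82 in pool E5 and 0.53 in pool E6 for Cxcl10.

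The makeup of the monocytes moved with these lists. Cluster 14, led by Nos2, Mmp12, Inhba and Hilpda, held 50.8%, 35.3%, 12.3% and 11.2% of the monocytes of anti-PD-1 mice 1 to 4 and 11.2%, 3.42%, 6.94% and 2.07% of those of isotype mice 1 to 4. Cluster 2, led by Cxcl10 and Ifit2, held 13.98%, 2.94%, 50.6% and 37.1% in anti-PD-1 mice and 48.4%, 28.9%, 28.2% and 37.6% in isotype mice. Both clusters were formed from the genes in question, so these shares are no separate evidence. Neutrophil markers in the monocytes summed to between 407 and 3714 CPM under anti-PD-1 and between 537 and 2182 CPM under isotype, and T and NK markers to between 30.3 and 37.7 CPM and between 51.7 and 88.7 CPM. The part of either in the gene differences was not tested.

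**Figure D3:**
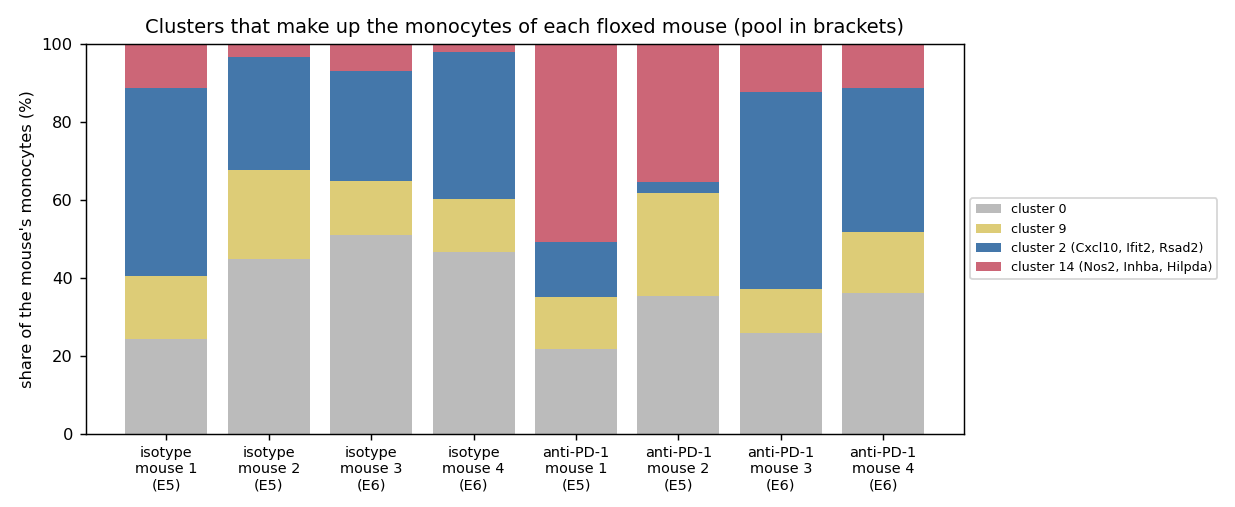
Percent of each floxed mouse's monocytes that fell in clusters 0, 2, 9 and 14, 1 stacked bar per mouse with its pool in brackets. Cluster 14 takes 50.8% and 35.3% in the E5 anti-PD-1 mice and between 2.07% and 12.3% in the other 6 mice.

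In macrophages 0 of 8935 genes were called (0%), with 979 under an unadjusted p of 0.05, and DESeq2 called 21. Interferon-stimulated genes stood out in direction: all 34 tested members were below 0, 23 of them under an unadjusted p of 0.05, with a median of -0.94 against 0.00 for all genes. Irf7, the transcription factor that amplifies type I interferon, had 42.8, 23.4, 95.6 and 55.3 CPM in anti-PD-1 mice 1 to 4 and 231, 241, 232 and 86.8 in isotype mice 1 to 4. Isotype mouse 4 was lower than the other 3 isotype mice and below anti-PD-1 mouse 3. The difference was -1.88 (SE 0.41, adjusted p = 0.203). Bst2, a tether of budding virus particles, had 306, 257, 377 and 324 against 594, 608, 556 and 389.9 CPM and did not overlap, at -0.76 (SE 0.17, adjusted p = 0.203). Ifi44, an interferon-induced gene, had 3.82, 5.57, 10.1 and 8.35 against 31.4, 34.1, 25.9 and 13.7 CPM, also without overlap, at -1.86 (SE 0.34, adjusted p = 0.184). The 2 pools agreed in sign for each of the 3 genes, and E5 gave the larger values (-2.86 in pool E5 and -0.95 in pool E6 for Irf7).

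MHC class I genes of the macrophages had estimates below 0 in all 11 tested members, 5 of them under an unadjusted p of 0.05, with a median of -0.43. H2-D1, a classical class I heavy chain, had 1207, 1333, 1440.0 and 1073 CPM in anti-PD-1 mice and 1773, 1877, 1729 and 1427 in isotype mice, at -0.43 (SE 0.12, adjusted p = 0.289), with anti-PD-1 mouse 3 just above isotype mouse 4. Nlrc5, the transactivator of class I genes, differed by -1.06 (SE 0.34, adjusted p = 0.33). MHC class II genes had a median of -0.31, none under an unadjusted p of 0.05. C1qa, C1qb and C1qc, the complement genes that mark tumour macrophages, differed by 0.05 to 0.16. Axl, a receptor for dying cells that interferon induces, had 94.8, 70.2, 123 and 88.7 against 175, 194, 125 and 161 CPM, without overlap, at -0.78 (SE 0.19, adjusted p = 0.256).

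T and NK cell RNA in the macrophages differed between treatments, while the summed markers of neutrophils, red cells, fibroblasts and endothelium overlapped. The 12 T and NK markers, none of them at 0 over the 8 mice, summed to between 14.2 and 20.9 CPM in anti-PD-1 macrophages and between 64.7 and 232 CPM in isotype macrophages. All 5 members that could be tested were below 0 under an unadjusted p of 0.05, Cd3d among them at -3.00 (SE 0.39, adjusted p = 0.158). Neutrophil markers summed to between 112 and 565 CPM under anti-PD-1 and between 136 and 1007 CPM under isotype. Their part in the interferon values was not tested. Without isotype mouse 4, 28 genes of the macrophages were called, and 17 without anti-PD-1 mouse 3.

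**Figure D4:**
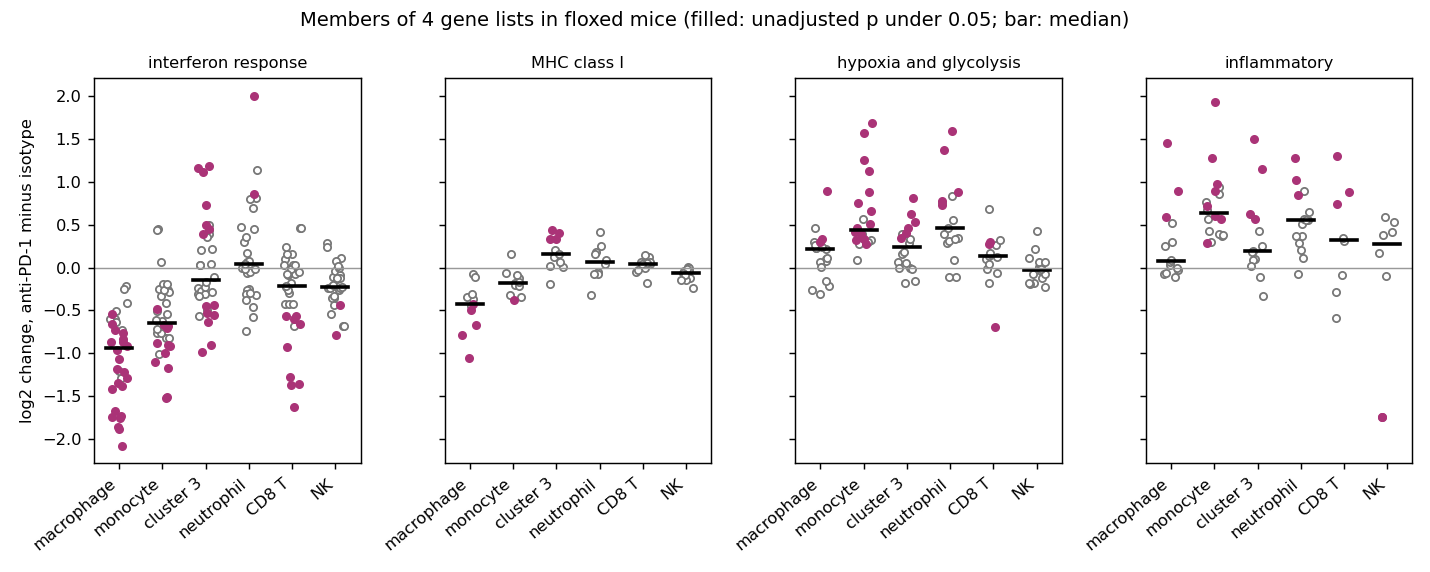
Log2 difference, anti-PD-1 minus isotype, of every tested member of the interferon, hypoxia and inflammatory lists in each class, with 1 point per gene and a bar at the median. All 34 interferon genes of the macrophages lie below 0, and all 20 hypoxia genes of the monocytes lie above 0.

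Cluster 3 held most of the calls. Dnase1l3, an endonuclease that myeloid cells secrete, rose from 49.2, 47.1, 27.5 and 27.5 CPM in isotype mice 1 to 4 to 208, 83.5 and 51.7 CPM in anti-PD-1 mice 1, 3 and 4. Mouse 1 was the highest, and the groups did not overlap. The fold was 3.48, with log2 difference 1.80 (SE 0.21), adjusted p = 0.000936. Upp1, the uridine phosphorylase that salvages pyrimidines, rose from 25.7, 44.4, 63.4 and 49.5 to 119.5, 164 and 155 CPM, without overlap, with log2 difference 1.61 (SE 0.21), adjusted p = 0.00172. Slc7a11, the cystine importer, rose from 15.7, 12.9, 30.6 and 27.5 to 70.4, 77.6 and 40.2 CPM, also without overlap, with log2 difference 1.65 (SE 0.28), adjusted p = 0.0247. Selenom, a selenoprotein of the endoplasmic reticulum, rose by 1.18 (SE 0.21, adjusted p = 0.0413). Upp1 was called in 13 of 14 alternatives and Dnase1l3 in 11, whereas Slc7a11 and Selenom were called in 5 each, and all kept their direction.

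The other calls of cluster 3 were an inflammatory chemokine and an interferon-inducible gene. Cxcl2, which attracts neutrophils, rose from 69.9, 81.3, 167 and 181 CPM in isotype mice 1 to 4 to 217, 251 and 397 CPM in anti-PD-1 mice 1, 3 and 4, with every anti-PD-1 mouse above every isotype mouse and log2 difference 1.14 (SE 0.19), adjusted p = 0.0247. Gbp2, an interferon-inducible guanylate-binding protein, rose from 317, 322, 372 and 264 to 979.6, 734 and 356 CPM, with log2 difference 1.16 (SE 0.21), adjusted p = 0.0413. Anti-PD-1 mouse 4 lay inside the isotype range of Gbp2. Cxcl2 was called in 7 and Gbp2 in 6 of 14 alternatives. Cxcl9 missed the threshold at 1.19 (SE 0.24, adjusted p = 0.0722), as did Ptgs2 at 1.49 (SE 0.28, adjusted p = 0.0566). DESeq2 called 17 genes in the cluster. Leaving out a mouse gave counts from 1, without anti-PD-1 mouse 1, to 12, without isotype mouse 3; without anti-PD-1 mouse 3 or 4 it was 3 or 11, and without isotype mouse 2 or 4 it was 2. Neutrophil markers summed to between 402 and 1334 CPM in the anti-PD-1 cells and between 284 and 513 CPM in the isotype cells, and their part was not tested.

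Members of the interferon list split in cluster 3. Of 34 tested, 16 were above 0 and 18 below, with 7 under an unadjusted p of 0.05 in each direction, beside 513 of 7532 over all genes of the cluster. Gbp2, Gbp5 and Cxcl9 were above 0, Gbp5 at 1.11 (SE 0.29, adjusted p = 0.245), and Usp18, a negative regulator of type I interferon signalling, was below at -0.98 (SE 0.24, adjusted p = 0.173). The cDC2 estimates also split, 14 above 0 and 20 below, with Gbp2 at 169, 391 and 234 CPM in anti-PD-1 mice 1, 3 and 4 and 88.3, 96.5, 139 and 110.2 in isotype mice, without overlap, at 1.15 (SE 0.20, adjusted p = 0.143), and Rsad2 at -1.21 (SE 0.49, adjusted p = 0.647). The immunoproteasome genes Psmb8, Psmb9 and Psmb10 of cluster 3 differed by 0.40 (SE 0.13, adjusted p = 0.451), 0.33 (SE 0.14, adjusted p = 0.685) and 0.33 (SE 0.14, adjusted p = 0.685).

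Promoters of genes from these lists are shown to place the motifs that interferon and NF-kappaB factors read, since the estimates of Ifit1 in CD8 T cells and Gbp2 in cluster 3 had opposite signs and Cxcl2 was called. The sequences are RefSeq promoters of GRCm38.p6 on the plus strand, from 140 to 21 bases before the start site, with motif matches in capitals. Gbp2 is at chr3:142620523-142620642 and Ifit1 at chr19:34640749-34640868, with matches to the interferon-stimulated response element GAAANNGAA on either strand. Cxcl2 is at chr5:90903759-90903878, with matches to the kappaB core GGGANNNNC.
Gbp2: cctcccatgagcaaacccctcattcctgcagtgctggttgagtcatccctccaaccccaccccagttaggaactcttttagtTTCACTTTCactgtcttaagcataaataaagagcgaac
Ifit1: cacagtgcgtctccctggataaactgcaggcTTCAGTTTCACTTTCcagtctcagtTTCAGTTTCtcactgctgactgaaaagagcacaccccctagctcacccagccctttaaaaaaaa
Cxcl2: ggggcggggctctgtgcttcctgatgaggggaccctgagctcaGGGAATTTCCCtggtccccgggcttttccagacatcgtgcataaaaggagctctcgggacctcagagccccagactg
The stretch of Gbp2 holds 1 match and that of Ifit1 holds 3, of which 2 overlap. In Cxcl2, 2 overlapping matches of the 5 in its promoter window fall in the stretch. Of 26 interferon list members with a promoter in the table, 20 (76.9%) held GAAANNGAA, against 9.76% of 27025 genes. The hypoxia core ACGTG was in 13 of 20 hypoxia list members (65.0%), against 21.8% of all genes, and GGGANNNNC in 13 of 17 inflammatory members (76.5%), against 58.0%. GGGANNNNC was not particular to the inflammatory list: 16 of 20 hypoxia members (80%) and 18 of 26 interferon members (69.2%) held it. The interferon-gamma motif TTCNNNGAA was in 6 of 26 interferon members (23.1%), against 9.55%. A match describes letters only and is not evidence of binding.

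Surface proteins were read from 88 antibodies in the same cells, with CPM taken over a class's antibody counts. Of 87 antibodies tested over all cells, 2 were called (2.3%), both lower under anti-PD-1. In monocytes it was 1 of 87 (1.15%), in cluster 3 it was 3 of 79 (3.8%), and there were none among 87 in macrophages (0%), 83 in neutrophils (0%), 81 in CD8 T cells (0%), 72 in NK cells (0%) and 73 in cDC2 (0%). Under an unadjusted p of 0.05 those 5 classes had 14, 8, 9, 11 and 7 antibodies by edgeR. DESeq2 was not run on antibodies.

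CD169, the sialic acid-binding receptor of some macrophages that Siglec1 encodes, fell. Over all cells it read 159.6, 265, 240.1 and 237 CPM in anti-PD-1 mice 1 to 4 and 609, 537, 603 and 488 in isotype mice 1 to 4, with log2 difference -1.32 (SE 0.24), adjusted p = 0.0146. In monocytes it read 117, 117, 193 and 149 against 352, 335, 505 and 358 CPM, with log2 difference -1.43 (SE 0.20), adjusted p = 0.0101, and in cluster 3 224, 154 and 220.2 against 580.0, 463, 683 and 529 CPM, with log2 difference -1.50 (SE 0.32), adjusted p = 0.0472. The groups did not overlap in any of these 3 sets of cells, and both pools gave differences of -1.18 or lower. In macrophages the level was higher, at 509.9, 375, 665 and 389 against 2613, 1029, 1108 and 973 CPM without overlap, but spread more, at -1.50 (SE 0.41, adjusted p = 0.144). Siglec1 RNA in macrophages was 10.7, 5.57, 21 and 14.6 CPM in anti-PD-1 mice and 41.6, 52.1, 26.8 and 24.4 in isotype mice, without overlap, at -1.38 (SE 0.35, adjusted p = 0.266).

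CD169 counts were low, and estimates below 0 were not limited to macrophages and monocytes. The mean count per cell over all cells was 0.454 in anti-PD-1 mice and 1.17 in isotype mice, beside 0.448 and 0.361 for the rat IgG1 control antibody. Among the other controls, rat IgG2b had 0.055 and 0.0582, hamster 0.685 and 0.365, and IgM 0.345 and 0.301. The rat IgG2a control had no counts in any mouse. Controls were not matched to the CD169 antibody by isotype. In lymphocytes, CD169 differed by -1.25 (SE 0.34, adjusted p = 0.232) in CD8 T cells and -1.21 (SE 0.46, adjusted p = 0.265) in NK cells. In cDC2 the difference was -2.49 (SE 0.52, adjusted p = 0.0576). In neutrophils the estimate was -0.001 (SE 0.44, adjusted p = 0.998), with anti-PD-1 mice between 46.1 and 326 CPM and isotype mice between 103 and 149. Rat IgG1 itself differed by 0.10 (SE 0.25, adjusted p = 0.863) in monocytes and 0.45 (SE 0.24, adjusted p = 0.374) over all cells. How far free antibody contributes to these counts was not tested. The monocyte call held in 12 of 15 alternatives (adjusted p from 0.00456 to 0.0808) and was lost without TMM scaling (0.0808), without anti-PD-1 mouse 1 (0.0609) and without anti-PD-1 mouse 4 (0.0515). The call over all cells held in 11 of 15 and was lost without TMM scaling (0.0864), anti-PD-1 mouse 3 (0.0533), isotype mouse 1 (0.0573) or isotype mouse 4 (0.0940).

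CD25, the interleukin-2 receptor chain encoded by Il2ra, was the other protein that fell over all cells, from 2653, 3585, 2410.0 and 2718 CPM in isotype mice 1 to 4 to 1228, 1231, 1073 and 1187 CPM in anti-PD-1 mice 1 to 4. The lowest isotype mouse was above the highest anti-PD-1 mouse, with log2 difference -1.26 (SE 0.21), adjusted p = 0.0146. The call held in 12 of 15 alternatives and was lost without TMM scaling (adjusted p = 0.0864), anti-PD-1 mouse 3 (0.0533) or isotype mouse 4 (0.0940). Within CD8 T cells CD25 read 4568, 1934 and 1202 CPM in anti-PD-1 mice 1, 3 and 4 and 1331, 1371, 2134 and 1343 in isotype mice 1 to 4. Only mouse 1 was above the isotype range, and the difference was 0.67 (SE 0.44, adjusted p = 0.601). The CD3, CD5, CD8a and CD4 antibodies over all cells were also below 0 without being called, at -1.15 (SE 0.38, adjusted p = 0.154), -1.20 (SE 0.30, adjusted p = 0.0897), -0.72 (SE 0.27, adjusted p = 0.185) and -0.67 (SE 0.29, adjusted p = 0.259), beside the smaller share of T and NK cells in anti-PD-1 mice.

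In cluster 3 the costimulatory ligand CD80 rose from 6892, 6745, 7851 and 6554 CPM in isotype mice 1 to 4 to 11220.0, 12320.0 and 15020.0 in anti-PD-1 mice 1, 3 and 4, without overlap and with log2 difference 0.84 (SE 0.19), adjusted p = 0.0472. Its RNA did not follow, with -0.07 (SE 0.45, adjusted p = 1). The CD80 antibody also had estimates above 0, without being called, of 0.99 (SE 0.23, adjusted p = 0.0665) in cDC2 and 0.88 (SE 0.25, adjusted p = 0.153) in monocytes. In neutrophils it was at 0.04 (SE 0.19, adjusted p = 0.942). TIM4, a receptor for phosphatidylserine on dying cells, rose from 82.4, 107, 56.9 and 107 to 612, 532 and 147 CPM, with log2 difference 2.41 (SE 0.45), adjusted p = 0.0472. Its counts were low, at 1.05, 1.27 and 0.3 per cell in anti-PD-1 mice 1, 3 and 4 and between 0.135 and 0.252 in the isotype mice. The rat IgG1 control had 0.564, 0.367 and 0.15 per cell and between 0.196 and 0.391. Hamster had 0.231, 0.5 and 0.2 and between 0.255 and 0.371. Rat IgG2b had 0.0256, 0 and 0.05 and between 0.0435 and 0.0968, and rat IgG2a had no counts. Controls were not matched to the TIM4 antibody by isotype. Timd4 RNA was too low to be tested in the cluster. The TIM4 antibody was not called elsewhere, with 1.60 (SE 0.61, adjusted p = 0.28) in macrophages and 1.43 (SE 0.44, adjusted p = 0.171) in cDC2. It was below 0 in CD8 T cells, at -1.57 (SE 0.33, adjusted p = 0.216), and in neutrophils, at -0.15 (SE 0.46, adjusted p = 0.909). All 3 antibody calls of cluster 3 were fragile: CD80 and CD169 were called in none of the 7 fits that left out a mouse, and TIM4 in 2. With recovered doublets left out, none of the 3 was called.

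CD163, a haemoglobin scavenger receptor of macrophages, had a wide range between mice. In macrophages the antibody read 68520.0, 54860.0, 170100.0 and 21230.0 CPM in anti-PD-1 mice 1 to 4 and 3115, 3787, 39790.0 and 24310.0 in isotype mice 1 to 4. Isotype mice 1 and 2, both of pool E5, were low, and anti-PD-1 mouse 4 lay inside the isotype range. The difference was 2.87 (SE 0.78, adjusted p = 0.144), with 4.16 in pool E5 and 0.95 in pool E6, and for the RNA it was 1.49 (SE 0.68, adjusted p = 0.457). CD115, the receptor for the macrophage growth factor CSF1, read 362, 385, 282 and 363 against 983, 581, 794 and 676 CPM without overlap, at -1.13 (SE 0.27, adjusted p = 0.144), whereas its gene Csf1r differed by -0.15 (SE 0.12, adjusted p = 0.681). In monocytes CD14, the lipopolysaccharide co-receptor, differed by 1.22 (SE 0.37, adjusted p = 0.153) on the protein scale and by 0.58 (SE 0.22, adjusted p = 0.4) in RNA.

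**Figure D5:**
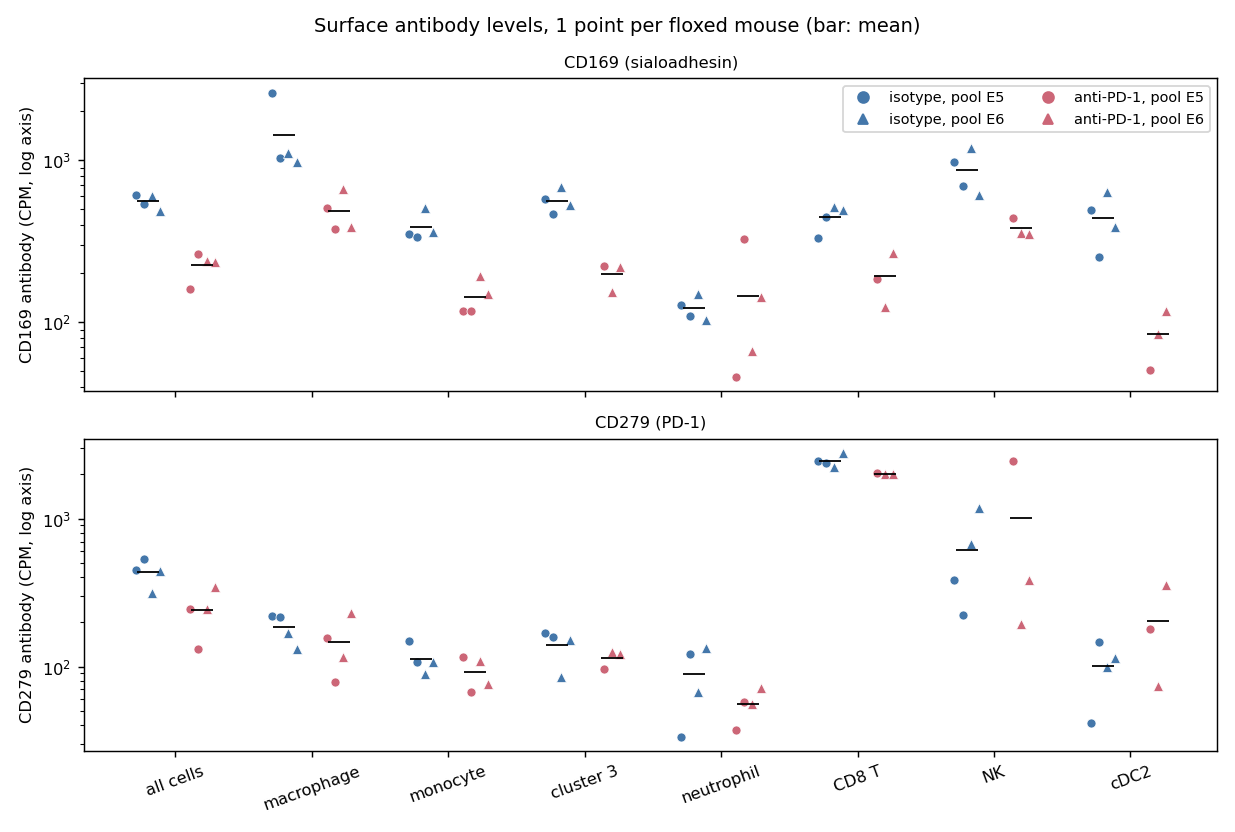
Surface antibody levels per floxed mouse, in CPM of antibody counts on a log axis, with a bar at the mean of each treatment. CD169 on monocytes lies between 117 and 193 CPM in the anti-PD-1 mice and between 335 and 505 CPM in the isotype mice.

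The target of the treatment was read in both modalities. Pdcd1 RNA, which encodes PD-1, was at 163, 280.5 and 218 CPM in CD8 T cells of anti-PD-1 mice 1, 3 and 4 and 181, 194, 194 and 199 in isotype mice 1 to 4, with overlap, at 0.15 (SE 0.16, adjusted p = 0.971). The CD279 antibody on the same cells read 2022, 1996 and 2016 against 2450.0, 2384, 2231 and 2787 CPM. All anti-PD-1 mice were below all isotype mice, but the difference did not pass the test, at -0.30 (SE 0.15, adjusted p = 0.529). Whether the therapeutic antibody occupied the epitope was not tested. Over all cells CD279 differed by -0.86 (SE 0.32, adjusted p = 0.185).

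Cd274, which encodes PD-L1, had positive estimates in several myeloid classes without being called. In neutrophils it was 256, 536, 888 and 163 CPM in anti-PD-1 mice 1 to 4 and 135, 92.1, 121 and 113 in isotype mice 1 to 4. The groups did not overlap, yet the gene was far from the threshold, at 1.93 (SE 0.44, adjusted p = 1). In monocytes it was 161, 124, 271 and 103 against 103, 91.3, 103 and 73.6 CPM, at 0.85 (SE 0.26, adjusted p = 0.29), and in cluster 3 78.97, 173 and 86.2 against 49.2, 65.6, 76.9 and 54.95 CPM, at 0.77 (SE 0.23, adjusted p = 0.442). Macrophages gave -0.18 (SE 0.58, adjusted p = 0.951), with anti-PD-1 mouse 3 at 63.0 CPM and the others between 10.96 and 14.5. The CD274 antibody differed by 0.49 (SE 0.24, adjusted p = 0.374) in monocytes, 0.45 (SE 0.19, adjusted p = 0.31) in cluster 3 and 0.36 (SE 0.36, adjusted p = 0.708) in neutrophils. Nr3c1, the floxed gene that both groups retain, differed most in size, without being called, by -0.19 (SE 0.39, adjusted p = 1) in neutrophils.

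In NK cells 0 of 5534 genes were called (0%), with 365 under an unadjusted p of 0.05 and 10 called by DESeq2. Cell cycle genes were above 0 in all 16 tested members, 8 under an unadjusted p of 0.05, with a median of 0.73. Top2a, the topoisomerase of dividing cells, had 181, 246 and 164 CPM in anti-PD-1 mice 1, 3 and 4 and 186, 126, 55.3 and 27.97 in isotype mice 1 to 4. Isotype mouse 1 lay among the anti-PD-1 mice and the other 3 isotype mice below them, with 0.24 in pool E5 and 2.32 in pool E6. Gzma, a granzyme protease, had 3639, 4521 and 4461 against 2550.0, 2848, 2908 and 3377 CPM without overlap, at 0.48 (SE 0.09, adjusted p = 0.234). Ifng in NK cells differed by 0.40 (SE 0.27, adjusted p = 0.819).

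In neutrophils 0 of 2511 genes were called (0%), with 105 under an unadjusted p of 0.05 and 0 called by DESeq2. Hypoxia and glycolysis genes were above 0 in 15 of 17 tested members, with a median of 0.46 and 5 under an unadjusted p of 0.05. Hk2, the first enzyme of glycolysis, had 280.3, 318, 233 and 163 CPM in anti-PD-1 mice and 160.3, 119, 141 and 87.5 in isotype mice, without overlap, at 0.88 (SE 0.25, adjusted p = 1). Inflammatory genes were above 0 in 14 of 15, with a median of 0.55. Ccl3 and Ccl4, chemokines for monocytes and T cells, differed by 1.02 (SE 0.35, adjusted p = 1) and 1.27 (SE 0.44, adjusted p = 1).

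In cDC2, antigen-presenting cells that prime CD4 T cells, 0 of 5922 genes were called (0%), with 414 under an unadjusted p of 0.05 and 10 called by DESeq2. MHC class II genes had a median of -0.01 over 10 members. Ccl12, a chemokine for monocytes, had 5.72, 28.3 and 22.7 CPM in anti-PD-1 mice 1, 3 and 4 and 97.3, 30.1, 119 and 47.8 in isotype mice, without overlap, at -2.05 (SE 0.59, adjusted p = 0.46). Dissociation stress genes, a list that responds to tissue handling, were above 0 in all 15 tested members of cDC2, 6 under an unadjusted p of 0.05, with a median of 0.37. Hspa1a, an inducible heat shock protein, had 366, 572 and 422 against 174, 130.1, 257 and 416 CPM, at 0.86 (SE 0.22, adjusted p = 0.439). The same list had medians between -0.11 and 0.15 in the other 7 sets of cells. Cell cycle genes of cDC2 were below 0 in 10 of 11.

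Whether these differences depended on the genotype was tested with all 16 mice as an interaction, for every class but cDC2, which had too few LysM-Cre cells. No gene passed in all cells (13032 tested, 0%), macrophages (9214, 0%), monocytes (9578, 0%), cluster 3 (6688, 0%), neutrophils (2978, 0%), CD8 T cells (7225, 0%) or NK cells (6602, 0%) by edgeR. Counts under an unadjusted p of 0.05 were 327, 438, 328, 392, 192, 313 and 255 in that order. DESeq2 called 1 gene in monocytes, 2 in neutrophils and 0 in the others. No antibody passed either, of 87 in all cells (0%), 87 in macrophages (0%), 87 in monocytes (0%), 85 in cluster 3 (0%), 86 in neutrophils (0%), 84 in CD8 T cells (0%) and 79 in NK cells (0%), with 8, 2, 4, 8, 2, 8 and 0 under an unadjusted p of 0.05. The LysM-Cre mice gave 1.34 for Ifng in CD8 T cells, 0.21 for Basp1 in monocytes and -0.44 for Cxcl2 in cluster 3, with unadjusted interaction p of 0.27, 0.022 and 0.0031. For CD169 over all cells their difference was -0.22, with an interaction p of 0.0014 and an adjusted p of 0.0904. No difference described here was shown to be particular to floxed mice.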

How the data were processed

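The data were 2 pools of tumour leukocytes profiled by CITE-seq, which reads RNA, surface antibody tags and hashtags from the same droplets (10x 3′ v3.1). The authors deposited raw UMI counts per barcode, unnormalized. Cell Ranger 3.0.1 and mm10 are named in the submitters' processing notes, whereas the file header names Cell Ranger 6.1.2.

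Cells were assigned to mice by hashtag and clustered in scanpy 1.11.5 (2000 variable genes, 30 components, 15 neighbours, leidenalg 0.10.2 at resolution 1). A cluster was named where its best marker score reached 1.5 on the log2 scale, led the next by 0.5 and rested on at least 3 detected markers. It stayed unnamed where its top genes held more markers of another class. Cluster 17 was such a case, with a macrophage score of 2.98, and is not in the macrophage shares. Cluster 12.1, led by neutrophil granule genes although macrophage markers scored best, was left unnamed by hand. Clusters whose top genes mixed classes had been split once more before naming. Barcodes carrying several hashtags (17.3% in E5 and 19.4% in E6) were left out, and remaining doublets were marked by neighbourhood and kept.

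Counts were summed per mouse and class (at least 20 cells, 3 mice per treatment) and tested with edgeR 4.0.16 (R 4.3.3, quasi-likelihood, TMM, pool as covariate, low genes filtered). Antibodies needed a total count of 100. The fits were tested on simulated data. DESeq2 1.42.0, other scalings and filters, a 90% hashtag share, resolution 0.5, no doublets, no shared barcodes, no antibody clumps and leaving out each mouse were alternatives. The shared-barcode and clump alternatives were chosen after seeing the data. Shares were compared by two-sided exact permutation tests in scipy 1.17.1 with Benjamini-Hochberg adjustment over 17 classes. Named genes were those called at an average of at least 10 CPM in 1 treatment, and, of each gene list, the 4 highest in level and the 4 with the smallest p. Nr3c1 and the PD-1 axis were named in every class. Members and lists were chosen with earlier results of these data known. Gene UMIs per mouse ran from 1952741 to 41154747, and intervals cover counting error only.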

Additional observations from a re-analysis of the deposited data

Results flagged for a closer look

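Of 113 groups of 4 mice examined, 6 had a mouse whose gap to its nearest neighbour was, relative to the group's range, above Dixon's 95% critical value for 4 samples. Chance alone gives such a gap in about 1 group in 20. Cluster 17 made up 8.772% of the cells of anti-PD-1 mouse 4, the highest of its group, and 4.888% of those of isotype mouse 1, the highest of the isotype group. Pdcd1 RNA over all cells was highest in isotype mouse 2, at 27.88 CPM. Cd274 RNA in macrophages reached 63 CPM in anti-PD-1 mouse 3, far from the other anti-PD-1 mice. The CD169 antibody on monocytes read 504.8 CPM in isotype mouse 3, on the side away from the anti-PD-1 mice. Pdcd1lg2 RNA, which encodes PD-L2, was 35.12 CPM at its highest in the CD8 T cells of an isotype mouse.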

How the results depend on the processing

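Of 350 alternative values of the main results, 250 kept their direction and side of the threshold or stayed within 1.5 times the main count, and 0 reversed. Over 124 list medians, 67 of 1508 alternative values moved by more than the spread between mice and 158 changed sign. Leaving out a mouse gave differences in cells per mouse from -2041.08 (without isotype mouse 4, the only isotype mouse that overlapped) to -1076.08 (without isotype mouse 3).

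Counts of genes called under DESeq2 were 5 in CD8 T cells, 10 in NK cells, 292 over all cells, 10 in cDC2, 17 in cluster 3, 21 in macrophages and 60 in monocytes. With no filter on low counts they were 71, 96, 529, 115, 69, 367 and 440 in that order, and 32 in neutrophils. With all 16 mice in the fit they were 0 in CD8 T cells, 1 in cluster 3, 12 in macrophages and 0 in monocytes. Without the pool covariate they were 0 in CD8 T cells, 1 over all cells, 1 in cluster 3 and 0 in monocytes. At resolution 0.5 they were 3 in cDC2, 11 in macrophages and 0 in monocytes. Without recovered doublets they were 3 in CD8 T cells, 2 in cDC2 and 2 in neutrophils. CD8 T cells gave 4 at a 90% hashtag share and 3 without shared barcodes. Leaving out a mouse gave 0 to 5 in CD8 T cells, 0 to 13 in NK cells, 0 to 3 in cDC2, 1 to 12 in cluster 3, 0 to 28 in macrophages and 0 to 9 in monocytes.

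Interaction genes with no filter were 32 in CD8 T cells, 17 in NK cells, 27 in cluster 3, 64 in macrophages, 67 in monocytes and 24 in neutrophils, and DESeq2 gave 1 in monocytes and 2 in neutrophils. Antibodies called without TMM were 0 over all cells, 1 in cDC2 and 0 in monocytes. With all 16 mice they were 4 over all cells, 3 in macrophages, 4 in monocytes and 1 in neutrophils. Without recovered doublets they were 2 in cDC2 and 0 in cluster 3. Without shared barcodes they were 1 in CD8 T cells and 2 in monocytes, and without antibody clumps 2 in monocytes. Leaving out a mouse gave 0 to 1 in CD8 T cells, 0 to 3 over all cells, 0 to 3 in cDC2, 0 to 1 in cluster 3, 0 to 1 in macrophages and 0 to 2 in monocytes. Apart from fewer samples, or more genes tested with no filter, the cause was not tested.

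The 90% hashtag share was not run for cluster 3 and cDC2, nor the fit of 16 mice for cDC2, for want of cells. At the alternative clustering resolution no class stood for cluster 3, and no fit was made. The calls of cluster 3 therefore rest on the main clustering alone. No paired analysis was possible because no label ties an anti-PD-1 mouse to an isotype mouse; the numbers in the labels mark the pools, which are the covariate of the fits. Depth limits the rare classes, above all in anti-PD-1 mouse 2 with 161 cells.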

Other observations

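Over all cells, tumour-associated macrophage genes were above 0 in 20 of 22 tested members, with a median of 0.74 and none called. Of these, 9 were under an unadjusted p of 0.05 by edgeR, beside 1815 of 12749 over all genes. Fc receptor genes, which bind antibody, were above 0 in all 6 tested members, with a median of 0.50 and 1 under that p. Mean shares were 19.3% against 9.22% for macrophages and 31.9% against 22.3% for monocytes, both with overlap. The part of these shares in either list was not tested. Fibroblast markers were below 0 in all 8 tested members, with a median of -1.12 and 6 under that p, beside the smaller fibroblast share of the anti-PD-1 mice. In NK cells, 4 of 5 tested MHC class II genes were below 0 and under that p. A single barcode can dominate an antibody sum: 1 CD8 T barcode of anti-PD-1 mouse 1 held 171532 antibody counts, 99.2% of them ITGB7, and 1 monocyte barcode of isotype mouse 1 held 393567, 99.4% of them PIRAB.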
